A study of Mus musculus with 8 samples.

Results

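Cytokinesis, the physical separation of daughter cells at the end of mitosis, was followed through 10 mouse genes of the central spindle and the division site: Racgap1, Ect2, Anln, Prc1, Cit, Cep55, Kif23, Kif20a, Kif4 and Kif14. A probe was taken as measuring one of them if its RefSeq transcript accession belonged to the gene. By this rule 8 of the 10 genes had 13 probes, among 18316 genes with a named probe on the array, and Prc1 and Kif14 had none and were not analysed here. All 8 were among the 14142 genes tested, which stood well above background on at least 2 of 8 arrays. The livers came from Mxcre+ mice, listed by the study as Survivin-deleted, and from Mxcre- mice, listed as wild type, at 0, 24, 36 and 48 h after partial hepatectomy by the sample titles. The treatment notes instead place the liver analysis a week later, a conflict that was not resolved, and the hours of the titles were used. Surgical removal of part of the liver makes the hepatocytes that remain divide. All animals of both genotypes were of 129/SV/B6 background, had received poly(IC) 1 week earlier and irradiation with a bone marrow transplant 2 months earlier, and were male or female without a record of which. The genotype of the donor marrow was not given. Mxcre is a Cre recombinase under the interferon-inducible Mx1 promoter, which poly(IC) switches on in liver and in blood cells alike, and the age of the mice was not given. Each genotype and time had 1 array, and nothing stated whether it held RNA of 1 mouse or of a pool. No spread between livers of a group could therefore be measured, and p-values rest on how steady a change was across genotypes or across times.

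At anaphase the microtubules between the separating chromosomes are bundled into the central spindle, which positions an actomyosin ring and later becomes the midbody that is cut at abscission. Centralspindlin, a complex of Kif23 and Racgap1, recruits the exchange factor Ect2, which activates RhoA under the membrane. The chromosomal passenger complex, of which Survivin (Birc5) is a subunit, moves from the centromeres to the same site and regulates these proteins through its kinase Aurkb. Most genes of the machinery are transcribed periodically, late in the cell cycle. Liver is a tissue in which cytokinesis often fails as part of normal growth, leaving binucleate and polyploid hepatocytes.

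Levels are given as log2 of the scanner's processed signal minus the log2 of the 75th percentile of the same array, so that 0 is the brightness of a fairly bright probe. A level is called dim where the scanner software did not mark the spot as well above background. Between 60.2% and 66.0% of the 43379 spots were above background on an array, and no spot was saturated. The arrays of 0 and 24 h lay on 1 slide and those of 36 and 48 h on another. Genotype was therefore compared within slides, as were 24 h against 0 h and 48 h against 36 h, whereas 36 or 48 h against 0 h cannot be told apart from the slide. Of 10 hepatocyte markers, 8 were tested and stood above background on all arrays. Birc5, the gene targeted for deletion, had levels of -2.75, -3.42, -1.51 and -1.14 at 0, 24, 36 and 48 h in Mxcre+ liver, against -0.20, -0.48, 1.61 and 5.10 in Mxcre- liver. It was 5.85-fold, 7.71-fold, 8.68-fold and 75.4-fold lower in Mxcre+ liver at these times, and which part of the transcript its probe reads was not examined.

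A promoter search was planned for the listed genes, Prc1 and Kif14 without a probe included. A link between motifs and time courses was not tested. RefSeq promoter sequences (build GRCm38.p6, 250 bases before to 50 after the annotated start) were searched on both strands for TTTGAA or TTCGAA, the cell cycle genes homology region (CHR) bound by MuvB complexes, and for CCAAT, the box bound by NF-Y. The 9 genes searched, with Kif20a left out, had 12 promoters, since Ect2, Prc1 and Cep55 have 2 annotated start sites each, whose windows overlap. Of the 12, 11 held a CHR, always in its first form, against 19.2% of 32851 mouse promoters of that length that held either form. By gene this was 8 of 9, against 21.7% of 27025 genes with the motif in any promoter. The CCAAT box was found in 8 of the 12, against 37.4% of all promoters, and both motifs in 8, against 7.52%. In 10 of the 12 a CHR lay within the last 100 bases, against 5.31% of all promoters, a window that was chosen after the positions had been seen. The promoters of the centralspindlin pair Kif23 (chr9:61946750-61947049, minus strand) and Racgap1 (chr15:99651607-99651906, minus strand) and of the midzone motor Kif4 (chrX:100625815-100626114, plus strand) are shown because they share an order of motifs. That of Anln (chr9:22389157-22389456, minus strand) has 2 copies of the CHR on opposite strands, and that of Cit (chr5:115845406-115845705, plus strand) has neither. Each is written in the direction of transcription. Capitals mark the CHR (6 letters) and the CCAAT box (5 letters), each on whichever strand it was found.
Kif23: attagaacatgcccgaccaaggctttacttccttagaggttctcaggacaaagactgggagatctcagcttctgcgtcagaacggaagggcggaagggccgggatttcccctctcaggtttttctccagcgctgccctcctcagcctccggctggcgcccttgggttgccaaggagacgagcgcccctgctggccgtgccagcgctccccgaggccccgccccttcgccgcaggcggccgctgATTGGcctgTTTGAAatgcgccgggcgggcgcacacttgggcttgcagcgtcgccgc
Racgap1: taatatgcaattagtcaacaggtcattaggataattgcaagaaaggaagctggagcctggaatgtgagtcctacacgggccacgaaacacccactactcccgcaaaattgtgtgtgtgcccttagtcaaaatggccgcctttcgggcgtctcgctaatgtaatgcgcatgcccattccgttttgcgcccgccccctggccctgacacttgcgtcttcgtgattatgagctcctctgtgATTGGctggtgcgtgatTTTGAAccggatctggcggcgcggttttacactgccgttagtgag
Kif4: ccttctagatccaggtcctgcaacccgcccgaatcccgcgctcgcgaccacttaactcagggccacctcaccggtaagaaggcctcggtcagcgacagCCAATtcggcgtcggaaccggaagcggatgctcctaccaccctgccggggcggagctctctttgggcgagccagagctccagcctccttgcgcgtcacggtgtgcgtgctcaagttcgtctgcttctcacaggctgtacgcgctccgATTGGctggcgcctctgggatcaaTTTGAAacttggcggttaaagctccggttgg
Anln: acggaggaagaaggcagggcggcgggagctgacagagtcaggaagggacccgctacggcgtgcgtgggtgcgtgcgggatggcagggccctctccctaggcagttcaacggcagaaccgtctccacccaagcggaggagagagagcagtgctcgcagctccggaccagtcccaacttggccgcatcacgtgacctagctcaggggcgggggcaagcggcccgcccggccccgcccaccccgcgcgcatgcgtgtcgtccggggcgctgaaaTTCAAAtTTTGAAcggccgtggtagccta
Cit: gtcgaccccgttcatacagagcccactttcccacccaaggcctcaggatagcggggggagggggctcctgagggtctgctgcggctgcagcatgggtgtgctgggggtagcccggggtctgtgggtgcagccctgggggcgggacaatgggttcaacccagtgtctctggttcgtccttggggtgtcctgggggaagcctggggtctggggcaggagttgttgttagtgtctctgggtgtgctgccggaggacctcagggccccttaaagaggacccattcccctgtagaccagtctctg

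Counting the start site as 1, a CCAAT box on the opposite strand began at -7 and the CHR at 3 in Kif23, at -12 and 6 in Racgap1, and at -5 and 20 in Kif4. Kif4 had a further CCAAT box at -152. In Anln the CHRs began at 22 and 29, and no CCAAT box was found. Ect2, not shown, held 2 CHRs and 3 CCAAT boxes. A match is a run of letters and not a shown binding site, and the absence of one in Cit concerns this window only. That window lies inside the gene, whose annotated span begins at chr5:115845224, and the windows of Ect2 and Kif14 also lie inside theirs. The outermost starts of Cit, Ect2 and Kif14 were not searched.

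Kif23 and Racgap1, the motor and the GTPase-activating subunit of centralspindlin, were dim in resting liver and above background on both arrays at 48 h. The brighter Kif23 probe had levels of -5.41, -4.93, -4.24 and -1.21 at 0, 24, 36 and 48 h in Mxcre+ liver, of which only the last was above background. In Mxcre- liver it had -5.43, -5.67, -4.47 and -1.55, with the 36 and 48 h arrays above background. Both 48 h arrays stood clear of all 6 earlier ones, and the second Kif23 probe, dim on all 6 earlier arrays, had -1.23 in Mxcre+ and -1.57 in Mxcre- liver at 48 h. The brighter Racgap1 probe had levels of -6.89, -6.62, -3.70 and -1.40 in Mxcre+ liver, dim at 0 and 24 h. In Mxcre- liver it had -5.02, -2.65, -3.14 and -1.40, dim at 0 h only. The 24 h arrays thus differed in that probe, whereas the second Racgap1 probe was dim on both of them, at -6.45 in Mxcre+ and -6.39 in Mxcre- liver, and reached -1.78 and -1.37 in these genotypes at 48 h.

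Ect2, the guanine nucleotide exchange factor that activates RhoA at the equator, was above background on all 8 arrays with its brighter probe. Its levels were -3.42, -3.73, -1.15 and 1.46 in Mxcre+ liver, against -3.65, -2.83, 0.19 and 1.90 in Mxcre- liver. The 0 h arrays were nearly level, and from 24 h on the Mxcre+ array was the lower of each pair. The second Ect2 probe was -3.89 and -1.43 at 36 and 48 h in Mxcre+ liver, against -2.48 and -0.96 in Mxcre- liver, the same order.

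Kif20a and Kif4 are kinesins of the midzone. Kif20a carries the chromosomal passenger complex to the central spindle, and Kif4 binds Prc1 and limits the length of midzone microtubules. Kif20a was above background on all 8 arrays, with levels of -2.77, -3.13, -1.28 and 2.49 in Mxcre+ liver, against -2.95, -1.97, -0.93 and 2.57 in Mxcre- liver. Its pairs were close at 0 and 48 h and furthest apart at 24 h. Kif4 had -5.20, -4.87, -1.99 and 0.33 in Mxcre+ liver, against -4.44, -4.07, -0.99 and 0.89 in Mxcre- liver, dim on the 0 and 24 h arrays except that of Mxcre- liver at 24 h. The Mxcre+ array was the lower of the Kif4 pair at each of the 4 times. Its second probe, above background on the 36 and 48 h arrays alone, had -3.63 and -1.09 there in Mxcre+ liver, against -2.49 and -0.58 in Mxcre- liver.

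Anln (anillin) links RhoA, actin, myosin and septins in the contractile ring, and Cit (citron kinase) stabilises the midbody. Anln was dim at 0 and 24 h in both genotypes, with levels of -5.38, -6.08, -4.10 and -2.02 in Mxcre+ liver, against -4.40, -5.10, -4.13 and -1.33 in Mxcre- liver. The genotypes were level at 36 h. At 48 h the Mxcre+ array was lower with this probe, whereas the other Anln probe had -2.91 in Mxcre+ and -3.03 in Mxcre- liver. Cit was above background on all 8 arrays and took a course of its own, with -2.81, -2.11, -2.10 and -3.25 in Mxcre+ liver, against -2.45, -2.45, -2.91 and -3.10 in Mxcre- liver. Its 8 levels spanned 1.15 log2 units, and both 48 h arrays lay below the other 6. Cep55, which assembles the abscission machinery at the midbody by binding Tsg101 and Alix (Pdcd6ip), had -6.24, -6.08, -2.92 and -0.74 in Mxcre+ liver, against -6.21, -5.54, -1.88 and -0.41 in Mxcre- liver. It was dim on all 4 arrays of 0 and 24 h and above background on all 4 later ones.

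**Figure D1:**
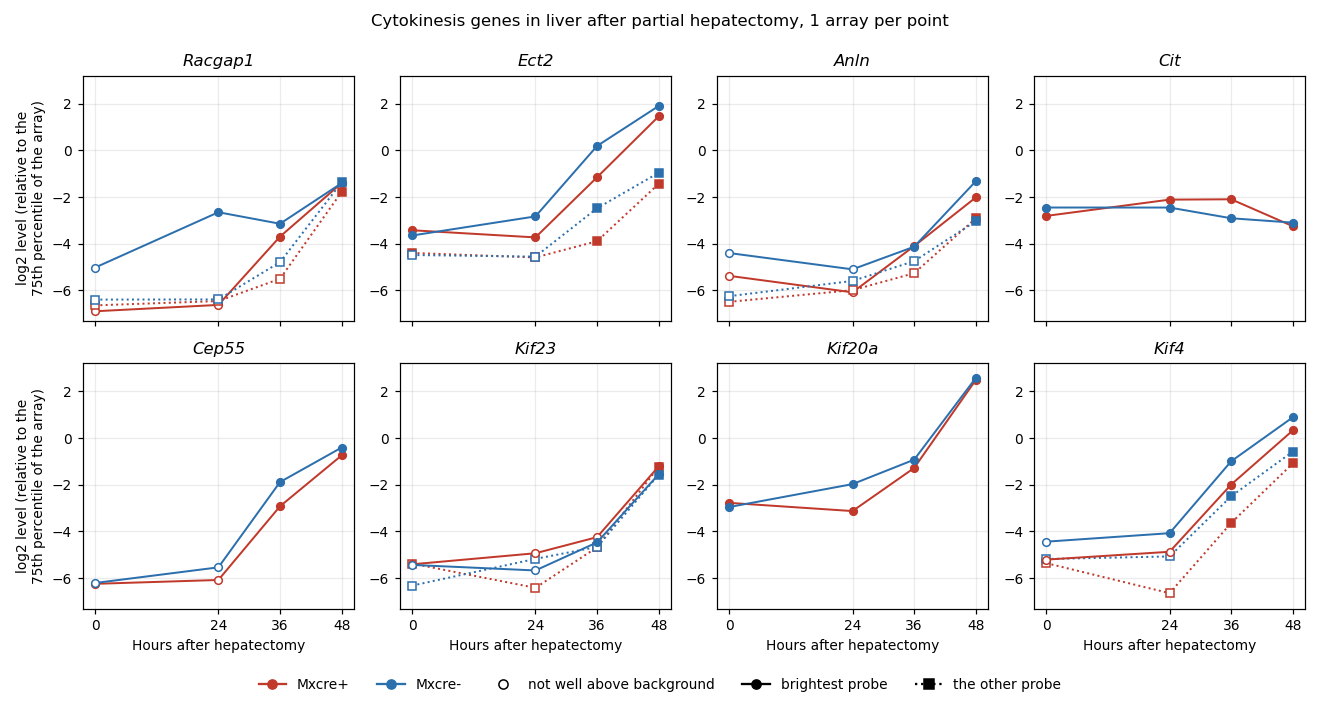
Log2 level of each probe (vertical axis, relative to the 75th percentile of its array) against hours after hepatectomy, 1 array a point, Mxcre+ in red and Mxcre- in blue. Open symbols are not well above background, circles with solid lines are the brightest probe and squares with dotted lines the other probe. In 7 genes both 48 h arrays lie above both 0 h arrays, whereas Cit stays between -3.25 and -2.10.

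The comparison of 48 h with 0 h asks which transcripts accompanied the regeneration of the liver. Of the 8 genes 7 rose, against 8.3% of all 14142 genes that did (limma, Benjamini-Hochberg adjusted p of 0.05). The 2 that were above background throughout rose 37.1-fold for Ect2 (5.21 ± 0.39 log2 units, SE, adjusted p = 0.00628) and 42.1-fold for Kif20a (5.39 ± 0.34, adjusted p = 0.00434). For the other 5 the 0 h arrays were dim, so only a lower bound of the fold can be given. It was taken against the higher of the dim signal and the lowest signal well above background on the same array. These 5 entered the test through later arrays alone, so a higher level at 48 h than at 0 h was partly set by the filter. An adjusted p beside a bound belongs to the fitted difference, in which dim values stood as read, and not to the bound. Kif4 was at least 34.0-fold higher at 48 h than at 0 h (adjusted p = 0.00127), Cep55 at least 15.0-fold (adjusted p = 0.00296), Kif23 at least 8.57-fold (adjusted p = 0.00297), Racgap1 at least 8.43-fold (adjusted p = 0.0414) and Anln at least 6.99-fold (adjusted p = 0.00942). Cit differed by -0.54 ± 0.31 and did not pass (adjusted p = 0.264). The median of the 8 differences was 4.88, or 3.50 with dim arrays raised to their background level, against -0.07 over all genes tested. In bulk liver, more dividing cells and more transcript per cell cannot be told apart.

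Without the Mxcre- 48 h array 3 of the 8 genes passed, and these were Cep55, Kif23 and Kif4. Leaving out any of the other 7 arrays left 5 to 7 calls, with Racgap1 passing in 2 of the 8 such fits and Anln in 5. With normexp background correction 2 passed, Ect2 and Kif20a. After that correction the 5th percentile of spots lay at 62.2 to 496 signal units by array, against 19.5 to 27 before it, and Kif4, Cep55, Kif23, Racgap1 and Anln were dim at 0 h.

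At 24 h none of the 8 genes differed from 0 h by the limma test (0 of 8, also at an unadjusted p under 0.05), against 4.6% of all genes that rose and 5.11% that fell. At 36 h 5 of the 8 were higher than at 0 h, against 8.1% of all genes. Kif4 was at least 7.93-fold higher (adjusted p = 0.00909) and Cep55 at least 4.22-fold (adjusted p = 0.0128). Kif23, above background on 1 of the 2 arrays of 36 h, was at least 1.09-fold higher (adjusted p = 0.0345 for a fitted difference of 1.06 ± 0.20). As at 48 h, these p-values belong to fitted differences that include dim 0 h values. Kif4, Cep55 and Kif23 entered the test through arrays later than 0 h alone. Ect2 rose by 3.05 ± 0.39 log2 units (adjusted p = 0.0215) and Kif20a by 1.76 ± 0.34 (adjusted p = 0.0363), 8.29-fold and 3.39-fold. Racgap1 (2.54 ± 0.98, adjusted p = 0.134), Anln (0.77 ± 0.28, adjusted p = 0.122) and Cit (0.13 ± 0.31, adjusted p = 0.785) did not pass. Leaving out either 0 h or either 24 h array left 2 calls, Kif4 and Cep55, either 48 h array left 3, the same 2 and Ect2, and either 36 h array left none. With normexp none passed.

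From 36 to 48 h, a step measured within 1 slide, 2 of the 8 genes rose, Kif23 and Kif4, against 0.099% of all genes (14 of 14142). Kif23 rose by 2.98 ± 0.20 log2 units (adjusted p = 0.0481), with 1 of its 2 arrays of 36 h dim, and Kif4 by 2.10 ± 0.15 (adjusted p = 0.0481), 4.29-fold. A further 4 had an unadjusted p under 0.05 without passing. These were Kif20a at 3.63 ± 0.34 (12.4-fold, adjusted p = 0.0607), Anln at 2.44 ± 0.28 (adjusted p = 0.0981), Cep55 at 1.83 ± 0.26 (adjusted p = 0.165) and Ect2 at 2.16 ± 0.39 (adjusted p = 0.255). Racgap1 (2.02 ± 0.98, adjusted p = 0.611) and Cit (-0.67 ± 0.31, adjusted p = 0.591) had larger p-values. No call in this comparison held when any 1 of the 8 arrays was left out, and 0 of the 8 genes passed with quantile normalisation or with the deposited matrix of values.

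Taken by genotype, the step from 36 to 48 h was 2-fold or more upward for 6 of the 7 genes above background on both arrays in Mxcre+ liver (2.59% of all such genes) and for 7 of 8 in Mxcre- liver (3.28% of all such genes). In Mxcre+ liver Kif20a was 13.6-fold, Ect2 6.11-fold, Kif4 4.98-fold, Racgap1 4.91-fold, Cep55 4.53-fold and Anln 4.24-fold brighter at 48 h, and Kif23 at least 8.19-fold. In Mxcre- liver Kif20a was 11.3-fold, Kif23 7.56-fold, Anln 6.98-fold, Kif4 3.68-fold, Racgap1 3.34-fold, Ect2 3.28-fold and Cep55 2.78-fold brighter. Of the genes above background on both arrays Kif20a had the largest step in each genotype. These are single arrays and no test of a difference between the genotypes in this step was made.

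Whether the genotypes differed over the 4 times was asked with the same limma fit. None of the 8 genes passed, nor did any of the 14142 (0%), of which 932 had an unadjusted p under 0.05. Of the 8 genes 6 had a negative difference (Mxcre+ minus Mxcre-), with a median of -0.55 against -0.03 over all genes tested, and adjusted p-values of 0.750 to 0.856. For all but Ect2, Cit and Kif20a these differences include dim arrays at 0 and 24 h. Kif4 had the steadiest value, -0.78 ± 0.10, lower in Mxcre+ liver at 4 of 4 times, and Anln (-0.66 ± 0.20) and Cep55 (-0.49 ± 0.18) also had an unadjusted p under 0.05. Ect2 was at -0.61 ± 0.27 and Kif20a at -0.35 ± 0.24, while Kif23 (0.33 ± 0.14) and Cit (0.16 ± 0.22) had positive values. Racgap1 was at -1.60 ± 0.70, with both 0 h arrays and the Mxcre+ 24 h array dim, and its second probe, dim until 48 h and fitted alone, gave -0.36 ± 0.14. Within the slide of 0 and 24 h the 8 differences ran from -2.92 to 0.38 (median -0.41), with dim arrays in 5 of the 8 genes, Racgap1 at -2.92 among them. Within that of 36 and 48 h they ran from -0.89 to 0.33 (median -0.30), with Kif23 dim on 1 array. Whether the late difference departed from the early one was tested in a second fit, in which 0 of 14142 genes passed (0%), 1200 of them and 1 of the 8 with an unadjusted p under 0.05.

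The single pairs of arrays give the course of these differences, as descriptions with no test. Errors here are the scanner software's own estimate for the spots (1 SD), which leaves out any difference between livers. At 0 h the 3 genes above background in both genotypes, Ect2, Cit and Kif20a, differed by -0.36 to 0.22, inside the span from -0.74 to 0.47 that held the middle 90% of genes, and 0 of 3 were lower by 2-fold or more (2.6% of all genes). At 24 h Kif20a was 2.23-fold lower in Mxcre+ liver (-1.15 ± 0.25), 1 of 3 genes against 1.18% of all, and Ect2 was at -0.90 ± 0.32, both below the span from -0.52 to 0.46 of the middle 90%. With normexp background correction the Kif20a difference was 0.011. That correction put the 5th percentile of spots at 356 in Mxcre+ and 221 in Mxcre- liver at 24 h. The Kif20a signals before it were 38.9 and 83.9, so it cannot decide the direction of this difference. Racgap1 was at least 3.28-fold lower at that time by its brighter probe, with the second probe dim on both arrays, and Kif4 at least 1.22-fold lower.

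At 36 h, 5 of the 7 genes above background in both genotypes were lower in Mxcre+ liver and 2 were higher. Of all genes above background in both, 53.5% were lower. The median was -0.55 for the 7 against -0.03 over all genes. By 2-fold or more, 2 of the 7 were lower, against 2.35% of all genes. These were Ect2 (2.53-fold, -1.34 ± 0.21, and -1.41 by its second probe) and Cep55 (2.05-fold, -1.04 ± 0.25). With normexp the Cep55 difference turned to 0.77. The 5th percentile of spots then lay at 482 in Mxcre+ and 62.8 in Mxcre- liver, against Cep55 signals of 57.4 and 97.3 before it. That value therefore cannot decide the direction for Cep55. Kif4, at -0.998 ± 0.21, lay just inside the 2-fold limit, with -1.14 by its second probe. All 3 were below the span of the middle 90% of genes, -0.69 to 0.67. Racgap1 was at -0.55 ± 0.28, Kif20a at -0.36 ± 0.21 and Anln at 0.03 ± 0.41. Cit stood on the other side, at 0.81 ± 0.24, above that span.

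By 48 h the same genes lay closer together. Of the 8 genes 6 had a negative and 2 a positive difference. Among all genes above background in both genotypes, 53.8% had a negative one. The 8 differences ran from -0.69 to 0.34 with a median of -0.24, all inside the span from -0.79 to 0.71 of the middle 90% of genes. By 2-fold or more 0 of 8 were lower (3.2% of all genes). Anln was at -0.69 ± 0.22 but at 0.12 by its second probe, Kif4 at -0.56 ± 0.20, Ect2 at -0.44 ± 0.20 and Cep55 at -0.34 ± 0.21. Kif20a was at -0.09 ± 0.20, Cit at -0.15 ± 0.30, Racgap1 at 0.00 ± 0.21 and Kif23 at 0.34 ± 0.21, the last with 0.34 by its second probe too. Birc5 differed by -6.24 ± 0.21 on the same 2 arrays.

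**Figure D2:**
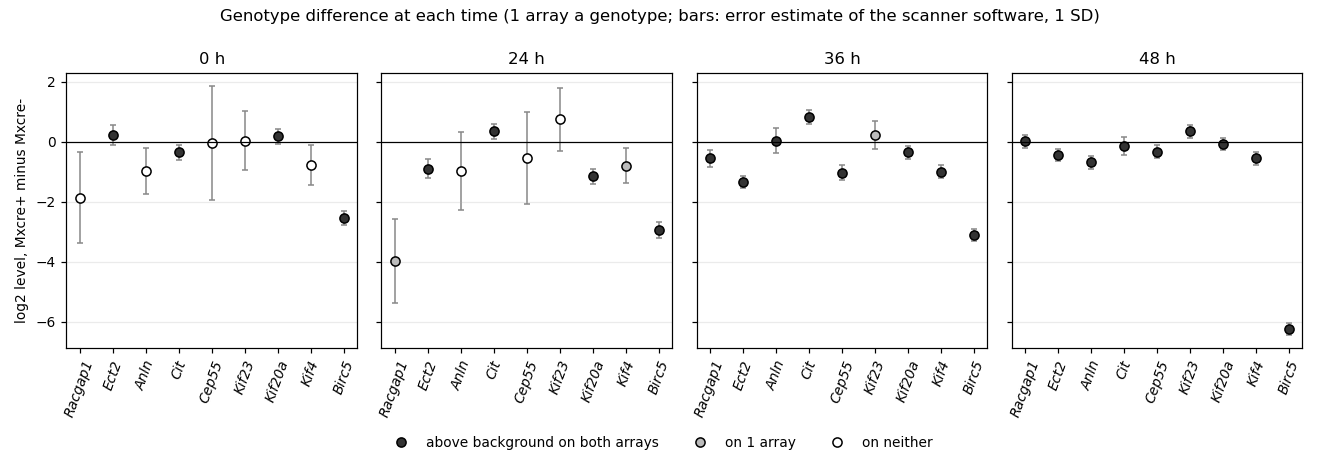
Difference in log2 level (Mxcre+ minus Mxcre-, vertical axis) for the 8 genes and Birc5 at each time, from 1 array a genotype. Bars are the scanner software's error estimate (1 SD), and dots are filled where both arrays were above background, grey where 1 was and open where neither was. At 36 h Ect2 (-1.34), Cep55 (-1.04) and Kif4 (-0.998) lie lowest of the 8, at 48 h all 8 lie between -0.69 and 0.34, and Birc5 is at -2.55 to -6.24 in all panels.

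Other genes of division placed these values. Of 17 further cytokinesis regulators, 10 rose and 1 fell at 48 h against 0 h, with a median of 3.69 (3.45 with dim arrays at their background level). Plk1, the kinase that primes Ect2 recruitment, rose 53.9-fold. Shcbp1, a partner of centralspindlin, was at least 64.5-fold, Nusap1, a microtubule-bundling protein, at least 65.3-fold, and Aurkb, the passenger kinase, at least 21.9-fold higher at 48 h. Klhl13, an adaptor of the ubiquitin ligase that removes Aurkb from chromosomes, fell by 0.60 ± 0.12 log2 units (adjusted p = 0.0382). At 36 h 7 of the 17 had risen, and from 36 to 48 h Plk1 alone among them passed, 12.4-fold (adjusted p = 0.0481).

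The genes of the contractile ring and of abscission had smaller values. Of 15 septin and actomyosin genes 5 rose at 48 h against 0 h, with a median over the list of 0.50. The 4 with the largest changes were the heavy chain Myh10 (1.51 ± 0.18), the light chain Myl9 (1.23 ± 0.20), the heavy chain Myh9 (0.85 ± 0.13) and Septin9 (0.78 ± 0.16). Of 21 genes of the ESCRT machinery and abscission 2 rose, the small GTPase Arf6 (1.11 ± 0.15) and the filament subunit Chmp2b (0.74 ± 0.17), and the list's median was 0.11. This count is close to the share of all genes that rose, 8.3%. In neither list did any gene pass from 36 to 48 h.

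Genes of DNA replication and of mitosis were set beside the 8 genes, with no test of timing between the lists. Of 18 S phase genes 15 rose at 36 h and 15 at 48 h against 0 h, with medians of 2.31 and 2.25, and Mcm6, a helicase subunit, was 28.2-fold and 17.0-fold higher at these times. From 36 to 48 h their median was -0.31 and none of the 18 passed. Of 20 genes of G2 and mitosis outside cytokinesis 16 rose at 36 h and 19 at 48 h. Their medians were 2.87 and 5.19, or 2.38 and 5.06 with dim arrays at their background level. At 0 h 11 of the 20 were above background in each genotype, and genes dim on both 0 h arrays entered the test through later arrays alone. From 36 to 48 h 3 rose further (median 2.45), the cyclins Ccnb1 (16.3-fold) and Ccnb2 (15.2-fold) and the kinetochore protein Cenpf (12.2-fold). The 8 genes had medians of 2.15 at 36 h (1.41 with dim arrays at their background level), 4.88 at 48 h (3.50 likewise) and 2.13 between these times.

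The genotype difference over the 4 times was negative in 14 of the 17 cytokinesis regulators (median -0.40, Birc5 among them). It was negative in 18 of 18 S phase genes (median -0.55) and in 20 of 20 genes of G2 and mitosis (median -0.46). Over all genes tested the median was -0.03. At a single time 47.6% to 53.8% of genes above background in both genotypes were lower in Mxcre+ liver. Within the slide of 0 and 24 h the S phase genes had a median of -0.02, with 10 of 18 negative, and within that of 36 and 48 h a median of -1.11, with 18 of 18 negative. The G2 and mitosis genes had -0.34 and -0.47 in these 2 slides, and the 8 cytokinesis genes the -0.41 and -0.30 given above. On each array of 0 and 24 h 11 or 12 of the 20 G2 and mitosis genes were above background, so their -0.34 includes dim arrays. Over the 4 times the difference was negative in 6 of 15 septin and actomyosin genes and in 8 of 21 of the abscission list, each with a median of 0.04. No gene of any of these lists passed, as in the array as a whole.

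**Figure D3:**
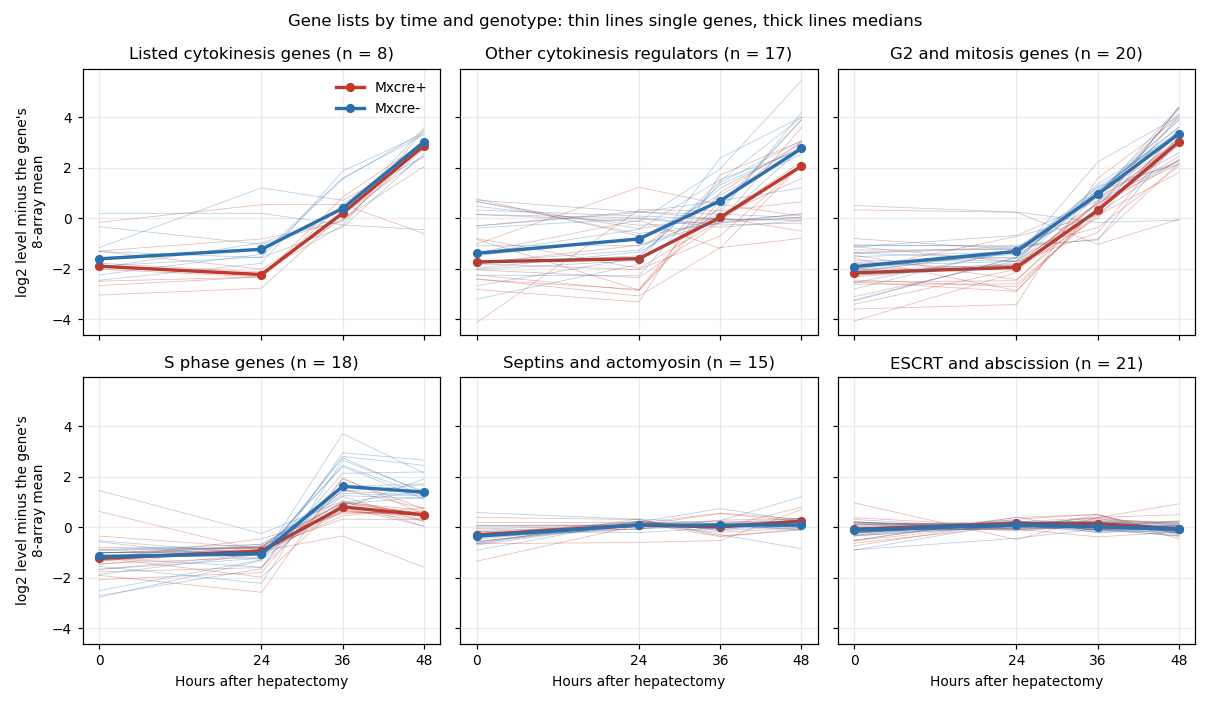
Log2 level minus the gene's own mean over the 8 arrays (vertical axis) against hours after hepatectomy for 6 gene lists, Mxcre+ in red and Mxcre- in blue, with thin lines for single genes and thick lines for list medians. The medians of the 8 cytokinesis genes, the other regulators and the G2 and mitosis genes are highest at 48 h, those of the S phase genes at 36 h, and those of the septin, actomyosin and abscission lists stay close to 0.

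The 8 genes followed each other to different degrees over the 8 arrays. Against the mean of the other 7 (each centred on its own mean), Pearson's r was 0.985 for Kif4, 0.98 for Ect2, 0.970 for Kif20a, 0.967 for Cep55, 0.937 for Anln, 0.909 for Kif23 and 0.852 for Racgap1, and -0.705 for Cit. Among 13407 other genes above background on at least 4 arrays, those most like the mean of the 8 were Cenpe (0.999), Ccna2 (0.997), Hmmr (0.997), Cdc20 (0.996), Ckap2 (0.996), Foxm1 (0.992), Cdca3 (0.992) and Tacc3 (0.990). They are a kinetochore motor, a cyclin, spindle-binding proteins, an activator of the anaphase-promoting complex, a transcription factor of mitotic genes and an activator of mitotic entry. The median r over those genes was -0.09, and 189 had an r of at least 0.9. These values describe arrays that share times and slides, and carry no p-value.

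Levels of markers of other cell types differed between times or, from 1 array a genotype, between genotypes. No genotype difference passed, and the part of these cell types in the values above was not tested. The summed level of 8 neutrophil markers was 2.999, 4.82, 6.12 and 6.50 at 0, 24, 36 and 48 h in Mxcre+ liver, against 6.04, 5.76, 4.94 and 4.62 in Mxcre- liver, so that the genotypes crossed between 24 and 36 h, and none of the 8 neutrophil markers passed in any comparison. Macrophage markers crossed likewise, with a summed level of 5.07, 4.84, 5.52 and 5.64 in Mxcre+ liver, against 5.95, 5.70, 4.88 and 5.57 in Mxcre- liver, and none of the 7 passed. Of 9 T and NK cell markers 6 fell at 48 h against 0 h, with a summed level of 0.45 to 1.20 in Mxcre+ and 0.37 to 1.56 in Mxcre- liver. Of 5 cholangiocyte markers 3 rose (Spp1, Sox9 and Krt7), with a summed level of 1.82 to 4.54 in Mxcre+ and 2.42 to 5.41 in Mxcre- liver. Of 5 B cell markers 3 fell at 36 h and 2 at 48 h against 0 h, with a summed level of -1.502 to -0.32 in Mxcre+ and -1.41 to 0.15 in Mxcre- liver. Of 7 stellate cell markers 3 rose at 36 h and 2 at 48 h, Col1a1 5.74-fold and Acta2 1.61-fold at 48 h, with a summed level of 3.93 to 4.57 in Mxcre+ and 3.78 to 4.65 in Mxcre- liver. Of 7 endothelial markers Stab2 alone fell at 48 h, and of 3 erythroid markers none passed. Among all genes tested 8.1% rose at 36 h and 8.3% at 48 h against 0 h. The share of all genes that fell at these times is not given here, so the counts of falling markers have no measure beside them. Hepatocyte markers summed to 11.6 to 11.95 in Mxcre+ and 11.8 to 11.9 in Mxcre- liver. Of 4 Y-linked genes, 3 were above background on the Mxcre+ 24 h array and 4 on the Mxcre- arrays of 24, 36 and 48 h. All 4 were dim on the other arrays. At 36 and 48 h genotype therefore coincided with Y-linked transcripts, and the 2 cannot be told apart there. In both genotypes 24 h against 0 h also differed in them, at a mean level of -1.30 (Mxcre+) and -0.79 (Mxcre-) against -6.04 and -6.33. In Mxcre- liver 36 h and 48 h against 0 h differed in them too. Xist, a transcript of female cells, was at 2.38 to 4.44 on arrays with Y-linked transcripts. It was at 5.16 to 5.55 on the others. Whether an array held RNA of both sexes was not tested. With the mean level of the Y-linked genes as a covariate the genotype difference of Kif4 was -0.80 ± 0.16, against -0.78 ± 0.10 without it. No gene passed in either fit. The fit with the covariate cannot separate genotype from Y-linked transcripts. Y-linked levels lay close between genotypes only at 0 and 24 h, where Kif4 was dim on all but the Mxcre- 24 h array.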

How the data were processed

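Total RNA of mouse liver was hybridised to 8 Agilent 1-colour (Cy3) arrays, with a single array per genotype and time. Groups were taken from the genotype labels and the sample titles. Per the file headers, the deposited values are intensities from Feature Extraction 10.7.3.1, after background subtraction and spatial detrending by that software (version 10.7 per the submitters' processing notes). The deposited matrix of values is on a log2 scale that is not stated. Its column medians were all 5.50 or 5.51, and the correlation of a column with its array was 0.999 or more, and with any other array 0.984 or less, across spots. It was used as an alternative only. Its scale and normalisation stay unknown.

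From the intensities, log2 values minus the array's 75th percentile were computed. Control spots and spots marked as outliers were left out, which removed 118 of 41174 probes. Of the 41056 probes kept, 26839 had an accession in the RefSeq table (GRCm38.p6), giving 18316 genes, and the brightest probe stood for a gene. Levels of the other probes are given beside it. Genes above background on at least 2 arrays were tested. limma 3.58.1 in R 4.3.3 fitted time and genotype to all 8 arrays (3 residual degrees of freedom). A second fit added a term for the genotype difference of the late times (2 residual degrees of freedom). P-values were adjusted by Benjamini-Hochberg over 14142 genes, with a threshold of 0.05. The scripts recovered changes added to levels simulated from the same model, a check of the code that says nothing on precision. The number of arrays limits the precision. Alternatives covered background correction, normalisation, source, filters, probes and each array left out. The members, gene lists and tests were chosen with earlier results of these data known. All members with all their probes are named, with up to 4 genes of each other list and the 8 genes most like the members' mean. Proteins were not analysed here.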

Additional observations from a re-analysis of the deposited data

Results flagged for a closer look

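Among genes above background on all 4 arrays of an interval between successive times, the 2 genotypes moved in opposite directions in 4 cases, each from 1 array per genotype and time, and the difference was not tested. From 0 to 24 h, Kif20a changed by -0.35 in Mxcre+ liver and by 0.98 in Mxcre- liver, a difference of -1.33 between the log2 changes. Over the same interval Ect2 changed by -0.31 in Mxcre+ and 0.82 in Mxcre- liver, a difference of -1.12. Cit changed by 0.70 in Mxcre+ liver and by -0.0013 in Mxcre- liver over that interval, a difference of 0.70, and from 24 to 36 h by 0.01 in Mxcre+ and -0.46 in Mxcre- liver, a difference of 0.47. The changes of -0.0013 and 0.01 are smaller than the scanner software's error for a difference between 2 Cit spots, 0.24 to 0.30, so these 2 cases rest on 1 genotype. The Ect2 change of -0.31 is also smaller than that error for 2 Ect2 spots, 0.34 at 0 h and 0.32 at 24 h. From 0 to 24 h the second Ect2 probe changed by -0.19 in Mxcre+ and -0.07 in Mxcre- liver, dim except on the Mxcre+ 0 h array. The Ect2 case therefore rests on 1 genotype and 1 probe. The Kif20a change of -0.35 exceeds its error of 0.25. From 0 to 36 h Cit changed by 0.71 in Mxcre+ and by -0.46 in Mxcre- liver.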

How the results depend on the processing

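Each array was the only one of its genotype and time, so leaving it out left 2 residual degrees of freedom and assumed that the lone array of that time varied like the others. Dim signal limits the folds of 5 of the 8 genes, and the number of arrays limits the precision of all. The genotype fit compared the 2 arrays of each time, and with 1 array a group there was no replicate number to add as a further block.

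With each array left out in turn, the genes called ran from 0 to 514 for 24 h against 0 h (main count 1373), 0 to 902 for 36 h against 0 h (2303), 86 to 1471 for 48 h against 0 h (2501), and were 0 in all 8 fits for 48 h against 36 h (15). Of the 8 cytokinesis genes, 0 to 3 were called at 36 h, 3 to 7 at 48 h, and 0 for 48 h against 36 h. With normexp background correction the counts were 32, 23, 81 and 5 genes in these 4 comparisons, with 0 of the 8 called at 36 h, 2 at 48 h and 1 for 48 h against 36 h, and 1 gene called for the late against the early genotype difference. Without a filter on dim genes they were 572, 939, 1556 and 2 genes, with 3 of the 8 called at 36 h and 0 for 48 h against 36 h. With genes above background on all 8 arrays alone, among which 3 of the 8 remained, 2 were called at 36 h, 2 at 48 h and 1 for 48 h against 36 h, where 27 genes passed. For that last comparison quantile normalisation and the deposited matrix each gave 2 genes and 0 of the 8, each probe on its own gave 28 probes, and 50 added to the processed signal (chosen after the data were seen) gave 67 genes and 4 of the 8. Setting the 24, 36 and 48 h pairs against the 0 h pair gave 24 genes with a changed genotype difference, none of them among the 8.

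Normexp turned the sign at 36 h against 0 h for Anln (-0.78), Cep55 (-0.29), Cit (-0.62), Kif23 (-0.73) and Racgap1 (-0.46), at 48 h against 0 h for Anln (-0.18) and Kif23 (-0.13), for genotype in Anln (0.42), Cep55 (0.18) and Racgap1 (0.24), and in the pairs of Kif20a at 24 h (0.011) and Cep55 at 36 h (0.77). It used the median spot signal, since no mean signal was in the files used here, and by its construction it adds an amount that differs by array to dim spots. With 1 array left out Cit at 36 h against 0 h ran from -0.31 (without the Mxcre+ 36 h array) to 0.56 and was -0.22 without the Mxcre+ 0 h array. With 1 pair left out its genotype difference ran from -0.057 (without the 36 h pair) to 0.33. The genotype comparison called 0 genes in all fits run, those leaving out a pair of arrays included.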
